A study of Mus musculus with 16 samples.

Results

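The transcripts described here encode interstitial matrix components and a receptor that lung fibroblasts are known for: Col1a1, Col1a2, Col3a1, Dcn, Lum, Dpt, Fbln1, Mfap5, Postn and Pdgfra. They were chosen by name from the merged gene table and are 10 of its 43346 genes. RNA-seq was carried out on freshly sorted lung endothelial cells (ECs) of Col1a1-GFP transgenic FVB mice, in which a Col1a1 promoter fragment drives green fluorescent protein, and all 4 groups carry that reporter. The young group was 2 months of age and the aged group 18 months. Each received PBS (sham) or about 1 U/kg bleomycin, a drug that injures the lung and leads to fibrosis, into the trachea, and lungs were taken 30 days later. Young mice gave 5 sham libraries (Young Sham) and 4 bleomycin libraries (Young Bleo), and aged mice gave 3 (Aged Sham) and 4 (Aged Bleo). Cells were gated as negative for CD45 (leukocytes), EpCAM (epithelium) and GFP, and positive for CD31, so cells with an active reporter were removed by design. Female and male mice were used, and the sex behind each library is not given in the sources used here.

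Interstitial matrix is the fibrous meshwork between the epithelial and vascular basement membranes. In the lung, fibroblasts are its main source: type I collagen (2 chains from Col1a1 and 1 from Col1a2) and type III collagen (Col3a1) form the fibrils, small proteoglycans and associated proteins bind to those fibrils, and fibulin and microfibril proteins attach to elastic fibres. ECs are known chiefly for making basement membrane, and transcripts of this kind in an EC sort can come from ECs or from a small number of other cells. In bulk RNA, fewer cells of a type and less RNA per cell cannot be told apart.

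Promoter sequence was available in RefSeq (GRCm38.p6) for 6 of the 10 genes. The 150 bases before the start are shown for Postn, which fell in 3 comparisons, for Fbln1 and Col1a2, which fell in injured aged cells, and for Col3a1, the partner collagen. Capitals mark a match, on either strand, to the letters TATAAA of the common core promoter box or to CCAAT, a motif further upstream. The windows are chr3:54360957-54361106 for Postn, chr6:4505468-4505617 for Col1a2, chr1:45311388-45311537 for Col3a1 and chr15:85205799-85205948 for Fbln1, all on the plus strand.
Postn: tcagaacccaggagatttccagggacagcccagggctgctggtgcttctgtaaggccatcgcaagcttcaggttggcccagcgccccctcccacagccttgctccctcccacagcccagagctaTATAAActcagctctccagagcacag
Col1a2: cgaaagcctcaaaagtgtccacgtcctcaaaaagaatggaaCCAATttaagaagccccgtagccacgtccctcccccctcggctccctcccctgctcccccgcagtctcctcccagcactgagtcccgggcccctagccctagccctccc
Col3a1: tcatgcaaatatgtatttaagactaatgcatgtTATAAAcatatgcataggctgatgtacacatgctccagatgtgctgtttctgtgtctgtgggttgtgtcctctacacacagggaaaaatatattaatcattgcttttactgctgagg
Fbln1: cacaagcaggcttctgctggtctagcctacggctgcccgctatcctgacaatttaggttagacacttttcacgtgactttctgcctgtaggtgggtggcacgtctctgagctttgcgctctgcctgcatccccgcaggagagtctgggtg
The TATAAA match of Postn begins 26 bases before its start, that of Col3a1 117 bases before, and the CCAAT match of Col1a2 109 bases before. Over the full 250 bases before the start, TATAAA occurs in 12.4% of 32851 RefSeq mouse promoters, CCAAT in 33.8% and AGGAAG, the core bound by ETS factors such as the endothelial regulator ERG, in 29.5%. AGGAAG occurs in none of the 6 windows, and Fbln1, Dpt and Pdgfra hold none of these letters. A match is a description and not a site of binding. All 10 genes are protein-coding in the files' mm10 annotation, and Dcn (chr10:97479500-97518162) and Lum (chr10:97565501-97572703) are neighbours separated by 47338 bases.

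The 16 libraries held between 20.9 M and 71 M gene-assigned counts. The 10 genes together took 0.0115% to 0.0490% of a library's counts, and all passed the filter on low values in every comparison. EC markers were abundant in every library: the summed FPKM (fragments per kilobase, scaled to library size) of 10 EC genes, among them Pecam1 (CD31) and Cdh5, ran from 1434 to 2607, against 10.5 to 43.0 for the 10 matrix genes. By group the EC sums were 2360 to 2610 in Young Sham, 2070 to 2230 in Aged Sham, 1570 to 2040 in Young Bleo and 1430 to 2060 in Aged Bleo, so Young Sham lay above the rest. Cldn5 made up the largest part of these sums, with a mean FPKM of 1534 in Young Sham, 1377 in Aged Sham, 830 in Young Bleo and 857 in Aged Bleo. Cldn5 and Kdr fell in both injured groups relative to Young Sham (Kdr in Aged Bleo not by edgeR, adjusted p = 0.090). Erg rose in both, Emcn rose in Young Bleo (log2 0.54, DESeq2 adjusted p = 0.015) and Vwf in Aged Bleo (0.83, DESeq2 adjusted p = 0.0076). The median log2 fold change of the 10 EC genes was 0.13 in Young Bleo and -0.11 in Aged Bleo. The part of these shifts in the results was not tested. Per length, Dcn was the most abundant of the 10 in all 4 groups, with a group mean FPKM of 16.4 in Young Bleo, 14.0 in Aged Sham, 12.6 in Young Sham and 5.18 in Aged Bleo libraries. Only the Aged Bleo range, 3.69 to 7.04, stood clear of the others, which ran from 7.65 to 22.5. Pdgfra was the lowest in both young groups (0.266 in sham and 0.345 after bleomycin), and Lum the lowest in both aged groups (0.838 in sham and 0.202 after bleomycin). For comparison, the EC cadherin Cdh5 had a mean FPKM of 77.6 to 103 across groups. In Young Sham the order of mean FPKM was Dcn, Col3a1 (4.90), Postn (4.49), Dpt (2.36), Col1a2 (1.79), Col1a1 (1.71), Mfap5 (1.68), Fbln1 (1.34), Lum (0.877) and Pdgfra. The ranges of neighbours in this order overlapped throughout (Dcn and Col3a1 only between 7.65 and 7.79), although Dcn was above Col3a1 within every Young Sham library.

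**Figure D1:**
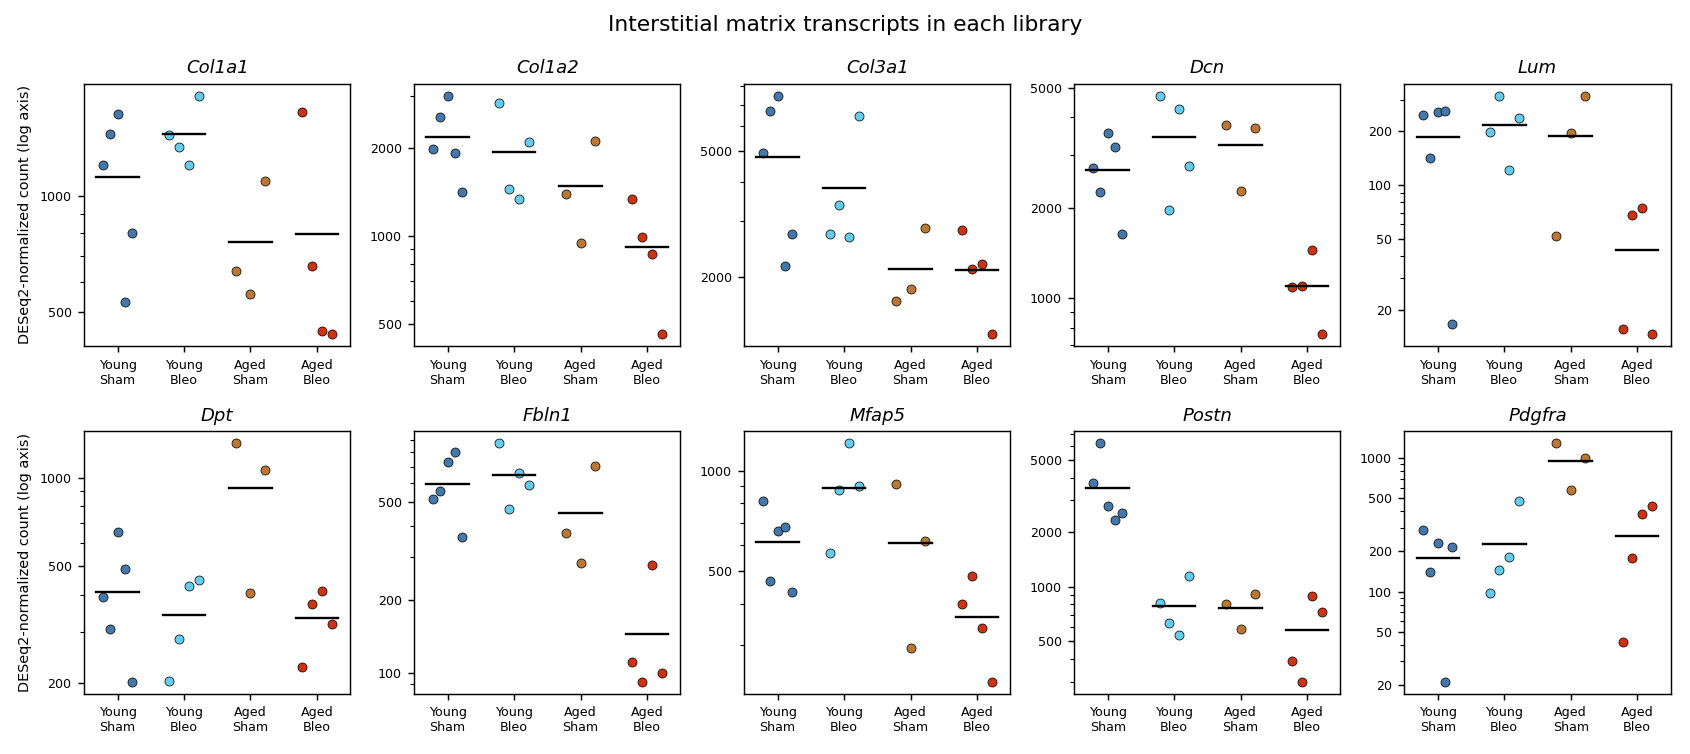
DESeq2-normalized count (log axis, 1 panel per gene) in each of the 16 libraries, grouped by age and treatment, with the group mean as a line. Postn stands between 2329 and 6191 in Young Sham and does not exceed 1148 in any other group, and all 4 Aged Bleo libraries lie at the bottom for Dcn and Fbln1.

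Differential expression was tested with DESeq2 over all genes, and a gene was called at an adjusted p of at most 0.05 with a log2 fold change of at least 0.5 in size. In Aged Bleo relative to Young Sham, 6 of the 10 genes fell (Postn, Fbln1, Dcn, Col1a2, Col3a1 and Lum), where 3.14% of 18515 genes tested fell and 6.58% rose. The same contrast by edgeR called 4 of them lower, with 1.49% of genes called lower. The median log2 fold change of the 10 genes was -1.22, against 0.02 over all genes tested. In Young Bleo relative to Young Sham, only Postn of the 10 passed the test, with 6.35% of genes called lower and 7.57% called higher (4.09% lower by edgeR), and the median was 0.18 against 0.01. The other 9 genes ranged there from -0.33 (Col3a1) to 0.54 (Mfap5), each short of the threshold.

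In uninjured cells, 1 of the 10 genes was called higher with age and 1 lower. At an unadjusted DESeq2 p under 0.05, 2 were higher and 2 lower. In Aged Sham relative to Young Sham, Pdgfra rose (2.24% of genes called higher, 0.699% by edgeR) and Postn fell (1.11% called lower, 0.164% by edgeR), and the median of the 10 was -0.20 against 0.02. Against their own sham group, aged cells showed a fall of Dcn, Fbln1 and Dpt after bleomycin, where 2.44% of genes fell and 3.39% rose. By edgeR, Dcn alone of the 10 was called there, with 0.349% of genes lower. Among injured cells, Dcn, Fbln1 and Mfap5 were lower with age, where 0.410% of genes fell and 0.616% rose. By edgeR none of the 10 was called in that contrast (6 were lower at an unadjusted p under 0.05, and 0.00546% of genes were called lower), with adjusted p = 0.057 for Dcn, 0.057 for Fbln1 and 0.22 for Mfap5. These comparisons share libraries and are not independent of one another.

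**Figure D2:**
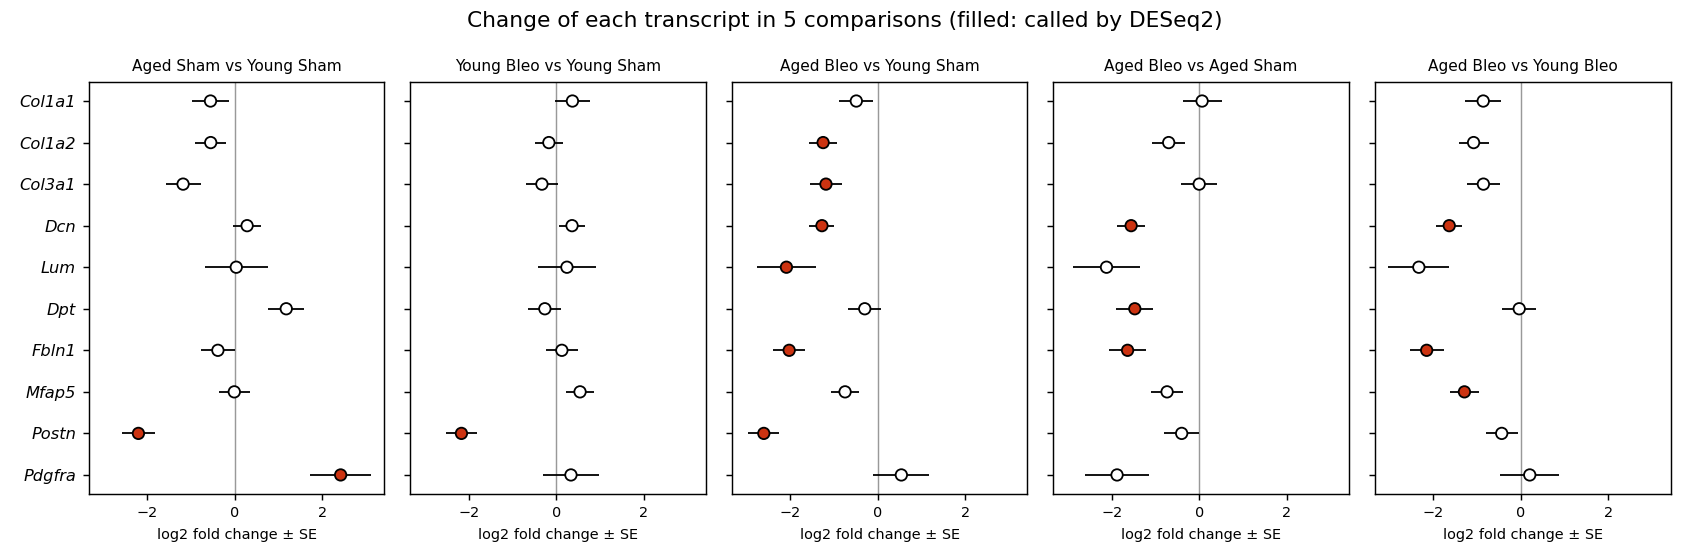
Log2 fold change (x axis) with its standard error for each of the 10 genes in 5 comparisons, from DESeq2 over all genes. Filled points passed the threshold: Postn lies near -2.2 to -2.6 in the 3 comparisons against Young Sham, and Dcn and Fbln1 lie left of zero in all 3 comparisons of Aged Bleo.

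Of the fibrillar collagens, Col1a2 and Col3a1 fell in injured aged cells relative to uninjured young cells, and Col1a1 was not called in any comparison. Col1a2 (chr6:4504814-4541543, exonic length 12136) measured 1984, 2543, 3016, 1923 and 1416 normalized counts in Young Sham and 2846, 1449, 1341 and 2097 in Young Bleo. It measured 1395, 945 and 2117 in Aged Sham, and 1339, 991, 865 and 462 in Aged Bleo. The Aged Bleo libraries lay under every young library and overlapped with Aged Sham. The highest of them, at 1339, was only just under the lowest Young Bleo library, at 1341. Relative to Young Sham, Col1a2 fell by 1.25 on the log2 scale in Aged Bleo (SE 0.325, 2.38-fold, DESeq2 adjusted p = 0.0028, edgeR adjusted p = 0.033), and the call held in 9 of 9 fits that left out a library. Its difference from Young Bleo, -1.08 (adjusted p = 0.090), passed without Aged Bleo replicate 1 (0.019).

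Col3a1 (chr1:45311538-45349706), which forms the thinner fibrils of distensible tissue, averaged 2106 ± 609 normalized counts (SD, n = 4) in Aged Bleo against 4794 ± 2349 (SD, n = 5) in Young Sham. It fell by 1.19 on the log2 scale (SE 0.366, DESeq2 adjusted p = 0.017). Young Sham spanned 2158 to 7484 and overlapped with Aged Bleo at 1316 to 2801, edgeR gave an adjusted p of 0.075, and the call held in 5 of 9 fits that left out a library (adjusted p = 0.053 without Aged Bleo replicate 2, 0.070 without Aged Bleo replicate 5, 0.069 without Young Sham replicate 22 and 0.077 without Young Sham replicate 23). Aged Sham, at 1673, 1822 and 2842, lay at the level of Aged Bleo, with a log2 difference between them of -0.00 (SE 0.418), and its difference from Young Sham was -1.18 (adjusted p = 0.073), which passed without Aged Sham replicate 15 (0.038) or Young Sham replicate 24 (0.015) or 25 (0.038).

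Col1a1 (chr11:94936224-94953042), the gene whose promoter drives the sorted-out reporter, was measurable in every library. It measured 1200, 1448, 1626, 532 and 802 normalized counts in Young Sham, 1435, 1336, 1202 and 1818 in Young Bleo, and 639, 557 and 1091 in Aged Sham. In Aged Bleo, replicate 1 stood at 1646 and the other libraries at 657, 447 and 440. No comparison called Col1a1, with differences from -0.86 (SE 0.413, DESeq2 adjusted p = 0.42, Aged Bleo relative to Young Bleo) to 0.37. Without Aged Bleo replicate 1 it was called lower relative to Young Sham (-1.12, DESeq2 adjusted p = 0.019) and relative to Young Bleo (-1.49, adjusted p = 0.0034). That replicate also had the highest summed FPKM of leukocyte markers, 1356, and its part in the Col1a1 level was not tested.

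Decorin (Dcn), the small proteoglycan that binds collagen fibrils and the growth factor TGF-beta, fell in injured aged cells relative to each of the other 3 groups. Young Sham libraries held 2715, 2249, 3539, 3182 and 1641 normalized counts, and Young Bleo libraries 4709, 1965, 4262 and 2744. Aged Sham libraries held 3763, 2274 and 3682, and Aged Bleo libraries 1090, 1096, 1446 and 762. Every Aged Bleo library lay under every library of the other groups. The log2 difference was -1.28 relative to Young Sham (SE 0.287, DESeq2 adjusted p = 0.00035), -1.56 relative to Aged Sham (SE 0.327, adjusted p = 0.00035) and -1.64 relative to Young Bleo (SE 0.302, adjusted p = 6.9e-05), or 2.43-fold, 2.95-fold and 3.11-fold lower. The calls held in 9 of 9, 7 of 7 and 8 of 8 fits that left out a library. By edgeR the adjusted p was 0.015, 0.044 and 0.057, and limma voom gave 0.055 relative to Aged Sham.

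The bleomycin response of Dcn also differed by age. Dcn went from a mean of 2665 ± 751 normalized counts to 3420 ± 1284 in young cells, a difference of 0.36 that was not called (adjusted p = 0.46), and from 3240 ± 837 to 1098 ± 280 in aged cells. The response in aged minus that in young cells was -1.92 on the log2 scale (SE 0.434, DESeq2 adjusted p = 0.011), where 0.247% of 19440 genes were called lower and 0.134% higher. It was called in 16 of 16 fits that left out a library. It was not called by edgeR, with an adjusted p of 0.32 and 0.00546% of genes called lower, nor by limma voom (adjusted p = 0.31). Of the other 9 genes none was called, the nearest being Postn (1.77, adjusted p = 0.13) and Fbln1 (-1.77, adjusted p = 0.15). Postn passed without Aged Bleo replicate 2 (0.033), Aged Bleo replicates 1 and 2 together (0.0017) or Young Bleo replicate 20 (0.023), and Fbln1 without Aged Bleo replicate 3 (0.002).

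Lumican (Lum), the neighbouring gene and also a fibril-binding proteoglycan, spread widely within each group. It measured 246, 142, 256, 260 and 16.6 normalized counts in Young Sham, and 198, 313, 121 and 238 in Young Bleo. Aged Sham libraries held 52.0, 195 and 316, and Aged Bleo libraries 15.7, 67.8, 74.4 and 14.6. Young Sham replicate 25 was as low as the lowest Aged Bleo libraries, so those groups overlapped, while Aged Bleo lay under all of Young Bleo. Relative to Young Sham, Lum in Aged Bleo fell by 2.09 on the log2 scale (SE 0.665, DESeq2 adjusted p = 0.021), a call that edgeR did not make (adjusted p = 0.10) and that held in 4 of 9 fits that left out a library. It was lost without Aged Bleo replicate 1 (adjusted p = 0.11) or 5 (0.074), or without Young Sham replicate 21 (0.063), 23 (0.061) or 24 (0.069). The differences from Aged Sham (-2.12, adjusted p = 0.068) and Young Bleo (-2.33, adjusted p = 0.065) did not pass. The first passed without Aged Bleo replicate 3 (0.026) or Aged Sham replicate 13 (0.034), and the second without Aged Bleo replicate 2 (0.050) or 3 (0.045), or with the 2 groups fitted alone (0.010).

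Dermatopontin (Dpt), a small matrix protein that binds decorin, had its highest values in uninjured aged cells. Aged Sham libraries held 1311, 407 and 1061 normalized counts and Aged Bleo libraries 228, 371, 413 and 318, so the groups overlapped at replicate 14. Dpt fell by 1.48 on the log2 scale between them (SE 0.424, DESeq2 adjusted p = 0.015, edgeR adjusted p = 0.084), and the call held in 4 of 7 fits that left out a library (adjusted p = 0.081 without Aged Bleo replicate 1, 0.14 without Aged Sham replicate 13 and 0.093 without Aged Sham replicate 15). Aged Sham relative to Young Sham gave 1.18 (SE 0.406, adjusted p = 0.082), which passed without Aged Sham replicate 14 (0.015) or Young Sham replicate 23 (0.026). The other Dpt differences were -0.26, -0.30 and -0.04 and were not called.

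Fibulin-1 (Fbln1), which associates with elastic fibres and basement membranes, was likewise lowest in injured aged cells. Young Sham libraries held 517, 558, 728, 804 and 361 normalized counts, and Young Bleo libraries 872, 469, 658 and 591. Aged Sham libraries held 376, 283 and 701, and Aged Bleo libraries 111, 92.1, 278 and 99.8. Aged Bleo did not overlap with any other group, although its replicate 3 came close to Aged Sham replicate 14. Fbln1 fell by 2.03 on the log2 scale relative to Young Sham (SE 0.366, 4.08-fold, DESeq2 adjusted p = 3.3e-06, edgeR adjusted p = 0.0063). It fell by 2.15 relative to Young Bleo (SE 0.385, DESeq2 adjusted p = 3.4e-05) and by 1.64 relative to Aged Sham (SE 0.417, DESeq2 adjusted p = 0.0043). The last call was lost without Aged Sham replicate 15 (adjusted p = 0.11), and edgeR gave 0.059.

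Mfap5, a microfibril protein of elastic tissue, spanned 568.3 to 1213 normalized counts in Young Bleo, 433 to 817 in Young Sham, 294 to 915 in Aged Sham and 233 to 486 in Aged Bleo. It fell in Aged Bleo relative to Young Bleo by 1.29 on the log2 scale (SE 0.339, DESeq2 adjusted p = 0.021), and those groups did not overlap. The call held in 4 of 8 fits that left out a library, with an edgeR adjusted p of 0.22. It was lost without Aged Bleo replicate 3 (0.084) or 5 (0.12) or Young Bleo replicate 18 (0.061) or 19 (0.16). Its difference from Young Sham, -0.75, did not pass (adjusted p = 0.12), and its difference from Aged Sham, -0.74, passed only without Aged Sham replicate 14 (0.042).

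Groups that did not overlap were counted among the 10 genes and among all genes tested. Aged Bleo lay wholly under Young Sham for the 4 genes Postn, Fbln1, Dcn and Col1a2, against 4.94% of all genes. Relative to Aged Sham these were Dcn, Fbln1 and Pdgfra, against 6.14%. Relative to Young Bleo they were Dcn, Fbln1, Mfap5, Lum and, only just, Col1a2, against 2.27%. Postn alone lay wholly lower in Young Bleo (7.17% of genes) and in Aged Sham (3.78%) relative to Young Sham, and Pdgfra alone lay wholly higher in Aged Sham (4.95%).

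Periostin (Postn), a matricellular protein of activated fibroblasts and smooth muscle, was high in uninjured young cells only: it fell in the other 3 groups relative to Young Sham. Young Sham libraries held 3738, 6191, 2797, 2329 and 2564 normalized counts. Young Bleo libraries held 814, 632, 540 and 1148, Aged Sham libraries 801, 586 and 908, and Aged Bleo libraries 391, 299, 894 and 728. The lowest Young Sham library lay above every library of the other groups, which overlapped with one another. Relative to Young Sham, Postn fell by 2.17 on the log2 scale in Young Bleo (SE 0.351, 4.50-fold, DESeq2 adjusted p = 1.1e-07, edgeR adjusted p = 0.0031). It fell by 2.20 in Aged Sham (SE 0.382, 4.61-fold, adjusted p = 3.6e-06, edgeR 0.019) and in Aged Bleo it fell by 2.61 (SE 0.351, 6.09-fold, adjusted p = 6.1e-11, edgeR 0.0016). All 3 calls held in every fit that left out a library. Between Aged Bleo and Aged Sham the difference was -0.40 (SE 0.400, adjusted p = 0.66), with an interval from -1.19 to 0.38.

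The summed level of markers of pericytes, the contractile cells that wrap capillaries, was also highest in Young Sham. Of these markers, Kcnj8 and Rgs5 were not highest there, with a mean FPKM of 0.503 and 0.867 against 0.593 and 0.881 in Young Bleo. The summed FPKM of 8 pericyte genes ran from 20.2 to 41.2 in Young Sham, 4.28 to 13.8 in Aged Sham, 3.78 to 7.30 in Young Bleo and 1.31 to 8.05 in Aged Bleo. Relative to Young Sham, 6 of these 8 genes fell in Aged Bleo, 5 in Young Bleo and 3 in Aged Sham, and edgeR called 6, 3 and 0 of them. Pdgfrb, the receptor that marks pericytes, changed by -2.29 in Young Bleo (DESeq2 adjusted p = 0.019, edgeR 0.057) and by -3.35 in Aged Bleo (adjusted p = 0.00031). In Aged Sham its difference was -2.235 and was not called (DESeq2 adjusted p = 0.11, edgeR 0.24). Sums of 7 smooth muscle genes ran from 42 to 89.6 in Young Sham, 30.6 to 46.0 in Aged Sham, 16.6 to 49.0 in Young Bleo and 12.3 to 20.0 in Aged Bleo, where all 7 fell relative to Young Sham (6 by edgeR). In Young Bleo 2 of the 7 fell, Acta2 (-1.08, DESeq2 adjusted p = 0.015) and Des (-1.97, adjusted p = 0.0027), of which edgeR called Des alone. In Aged Sham the differences ran from -0.72 to -0.03 with a smallest adjusted p of 0.36. Relative to Aged Sham, 4 of these 7 fell in Aged Bleo (1 by edgeR), with a median of -1.56. Defining markers such as Acta2 were above 0 in every library, and Trpc6 was at 0 in at least 1. The part of these cells in the Postn result, and in the falls of Dcn, Fbln1, Dpt, Col1a2, Col3a1 and Lum in Aged Bleo, was not tested.

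**Figure D3:**
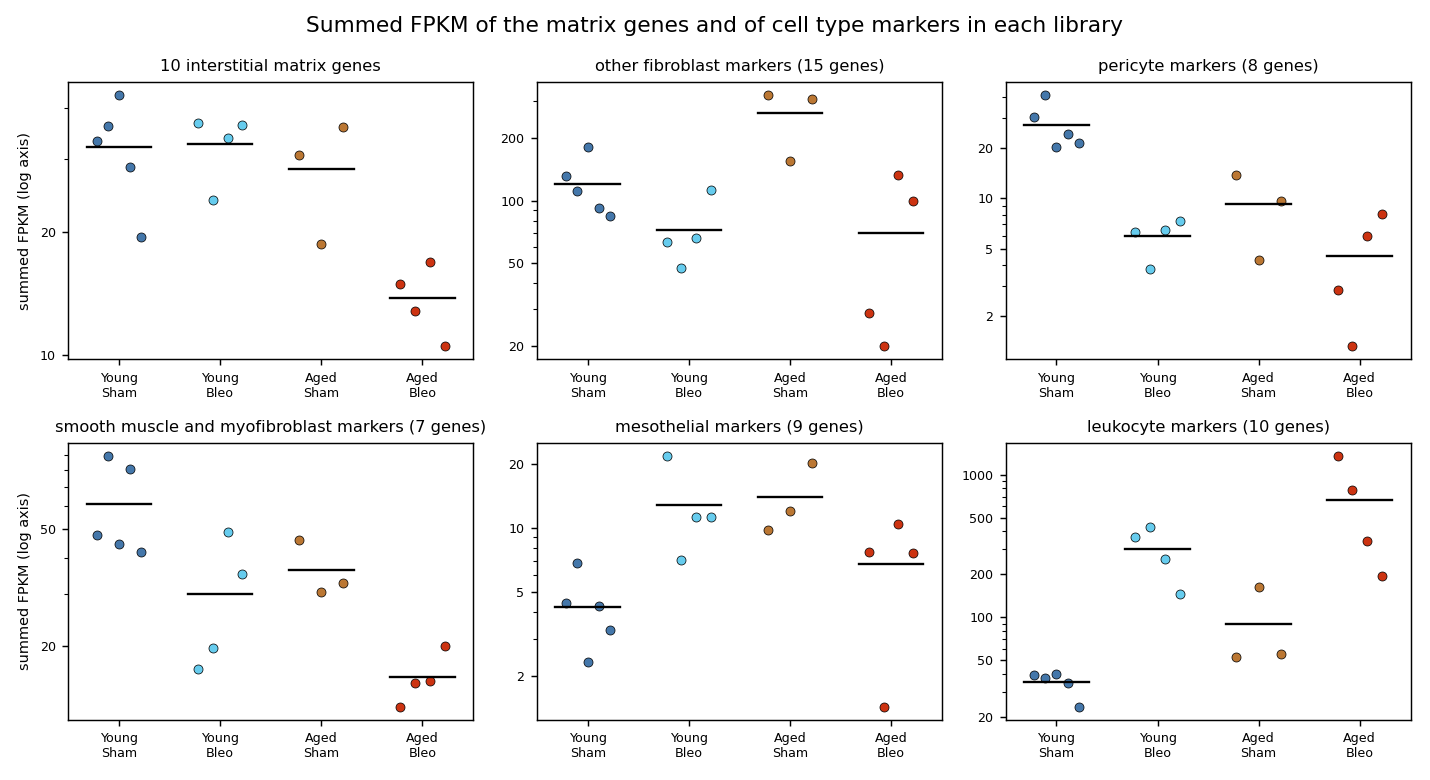
Summed FPKM (log axis) of the 10 matrix genes and of 5 sets of cell type markers in each library, with group means as lines. Pericyte sums are 20.2 to 41.2 in Young Sham and at most 13.8 elsewhere, leukocyte sums reach 1356 in Aged Bleo, and sums of other fibroblast markers are highest in Aged Sham (156 to 322).

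Pdgfra, the receptor that marks lung fibroblasts, was highest in uninjured aged cells, at 1295, 582 and 1001 normalized counts. Young Sham libraries held 290, 140, 230, 21.1 and 215, Young Bleo libraries 97.0, 146, 183 and 478, and Aged Bleo libraries 41.6, 178, 382 and 439. No library of another group reached the lowest Aged Sham library. Pdgfra rose in Aged Sham relative to Young Sham by 2.42 on the log2 scale (SE 0.693, 5.35-fold, DESeq2 adjusted p = 0.020). The call was not made by edgeR (adjusted p = 0.13) and was lost without Aged Sham replicate 13 (0.13), Aged Sham replicate 15 (0.067) or Young Sham replicate 22 (0.057). Between Aged Bleo and Aged Sham the difference was -1.88 (SE 0.724) and did not pass (adjusted p = 0.10) except without Aged Bleo replicate 5 (0.047).

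Fibroblast markers outside the collagen and proteoglycan genes, a list that includes the matrix protein nephronectin (Npnt), had their highest summed level in Aged Sham, which overlapped with Young Sham. The summed FPKM of these 15 genes was 156 to 322 in Aged Sham, 84.5 to 180 in Young Sham, 47.3 to 112 in Young Bleo and 19.9 to 133 in Aged Bleo. Gsn and Inmt made up most of the sum in Aged Sham (mean FPKM of 112 and 117). In Aged Sham relative to Young Sham, 2 of 14 tested rose, Ces1d (2.55, adjusted p = 0.039) and Wnt2 (1.42, adjusted p = 0.028), and the median was 0.88. By edgeR neither was called (adjusted p = 0.11 and 0.12). Between aged groups, 6 of 14 fell after bleomycin, among them Gsn (-1.88, adjusted p = 0.016), Inmt (-2.54, adjusted p = 0.032) and Clec3b (-1.37, adjusted p = 0.0026). By edgeR 1 of the 14 was called lower, and these 3 were not (adjusted p = 0.11, 0.10 and 0.053). In Young Bleo relative to Young Sham, Pi16, a marker of adventitial fibroblasts, rose (2.38, DESeq2 adjusted p = 4.8e-05, edgeR 0.0087), while 2 genes fell, among them the transcription factor Tcf21 (-2.29, adjusted p = 0.0014, edgeR 0.033). Only 2 of the 14 genes were above 0 there, and the median was -0.77. Aged Bleo had 2 of 14 lower than in Young Sham, also by edgeR, with a median of -1.03.

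Mesothelial markers, 9 genes of the lung's outer lining, summed to 9.71 to 20.2 in Aged Sham, 7.05 to 21.8 in Young Bleo, 2.34 to 6.80 in Young Sham and 1.43 to 10.4 in Aged Bleo. Most of the Young Sham sum was Nkain4 (mean FPKM of 3.50), which fell in Aged Bleo (-1.87, DESeq2 adjusted p = 0.018, edgeR 0.092) and was not called in the other groups. Wt1 was at 0 in every Young Sham library. Relative to Young Sham, 6 of these 9 genes rose in Aged Sham, 8 in Young Bleo and 5 in Aged Bleo (4, 7 and 4 by edgeR). The most abundant of them, mesothelin (Msln), differed by 4.41, 4.65 and 3.38 on the log2 scale. The difference between responses, aged minus young, was called lower for 4 of the 9, Msln among them (-5.67, DESeq2 adjusted p = 0.038), in the contrast that called Dcn lower. By edgeR none of these 4 was called there, with adjusted p from 0.051 to 0.47. Lymphatic EC markers, 7 genes of vessels whose cells also carry CD31, summed to 681 to 1530 in Young Bleo, 317 to 612 in Aged Bleo, 265 to 364 in Young Sham and 254 to 348 in Aged Sham. Ccl21a made up most of the sum in every group, with a mean FPKM of 970 in Young Bleo, 396 in Aged Bleo, 263 in Young Sham and 264 in Aged Sham. Relative to Young Sham, 4 of the 7 rose in Young Bleo (3 by edgeR). In Aged Bleo relative to Young Bleo, the contrast in which Dcn, Fbln1 and Mfap5 fell, all 7 were below 0 with a median of -0.72. The chemokine Ccl21a alone was called (-1.26, DESeq2 adjusted p = 0.0036), and edgeR did not call it (adjusted p = 0.13). The part of these fibroblast, mesothelial and lymphatic cells in the Pdgfra, Dcn, Fbln1, Mfap5 and Dpt results was not tested.

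Some leukocyte markers rose with injury although CD45-positive cells were gated out. Of 10 genes, 4 rose in Young Bleo and 5 in Aged Bleo relative to Young Sham (4 and 5 by edgeR), and 4 in Aged Bleo relative to Aged Sham (2 by edgeR). Their summed FPKM was 23.5 to 40.1 in Young Sham, 52.6 to 162 in Aged Sham, 147 to 427 in Young Bleo and 195 to 1356 in Aged Bleo, with replicates 1 and 2 highest at 1356 and 779. Lyz2, a lysozyme of macrophages and neutrophils, made up most of it, with a mean FPKM of 278 in Young Bleo and 621.5 in Aged Bleo. Without those 2 libraries, 5 of the 10 matrix genes were called lower relative to Young Sham, where 0.933% of all genes were. Col3a1 (-1.45, adjusted p = 0.061) and Lum (-2.04, adjusted p = 0.21) were no longer called, and Col1a1 was (-1.34, adjusted p = 0.023). Also without them, 5 of the 10 matrix genes were called lower in Aged Bleo relative to Young Bleo, where 3.33% of all genes were then called lower. Relative to Aged Sham, 1 of the 10 was called lower, where 0.383% of genes were. The 2 calls lost there had log2 differences of -1.34 for Dpt (adjusted p = 0.22) and -1.26 for Fbln1 (adjusted p = 0.20), against -1.48 and -1.64 with all libraries. The difference between responses of Dcn was -1.92 also without them (DESeq2 adjusted p = 0.012). Epithelial markers were present too, although EpCAM-positive cells were gated out. The summed FPKM of 8 such genes was 62.1 to 566 in Young Sham, 135 to 648 in Aged Sham, 147 to 537 in Young Bleo and 165 to 412 in Aged Bleo. Relative to Young Sham, 1 of the 8 fell in each injured group (also by edgeR) and 0 were called in Aged Sham. The part of epithelial cells in the matrix results was not tested.

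Ratios of 2 genes within a library, which do not depend on library scaling, were compared in 20 tests. None passed after Benjamini-Hochberg adjustment (4 at an unadjusted p under 0.05), with a smallest adjusted p of 0.089 (exact permutation test, two-sided). With groups of 3 to 5 libraries the exact p has a floor, at which the values of 0.0079 and 0.018 below already stand. Over 20 tests, a single ratio at its floor could not pass alone. A ratio that did not pass is therefore not shown to be unchanged. The mean log2 ratio of Postn to Dcn was -1.55 in Young Sham (SD 0.78, n = 5). Its mean was -4.00 after bleomycin in young cells (SD 0.79, n = 4), -3.96 in aged sham cells (SD 0.14, n = 3) and -2.92 after bleomycin in aged cells (SD 0.80, n = 4). Young Sham did not overlap with Young Bleo (exact permutation p = 0.0079, adjusted 0.089) or Aged Sham (exact permutation p = 0.018, adjusted 0.089). Aged Bleo lay wholly above Aged Sham, by 1.05 (exact permutation p = 0.057, adjusted 0.19). Col1a1 to Col3a1 was -1.46 ± 0.18 in Young Sham and -0.91 ± 0.18 in Aged Sham, again without overlap (exact permutation p = 0.018, adjusted 0.089). In Young Bleo it was -0.73 ± 0.38, overlapping with Young Sham (exact permutation p = 0.016, adjusted 0.089). Col1a1 to Col1a2, the chains made in fixed proportion in the type I collagen trimer, ranged from -0.96 to 1.18 over all libraries, and had means of -0.13 in Young Sham, -0.06 in Aged Sham, 0.52 in Young Bleo and 0.55 in Aged Bleo. In the pairs tested, injured groups differed from sham groups by 0.61 to 0.68 with overlapping libraries (exact permutation p = 0.095 for Young Bleo and 0.087 for Aged Bleo relative to Young Sham, and 0.11 for Aged Bleo relative to Aged Sham, adjusted 0.24, 0.24 and 0.25). Young Bleo was not tested against Aged Sham.

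**Figure D4:**
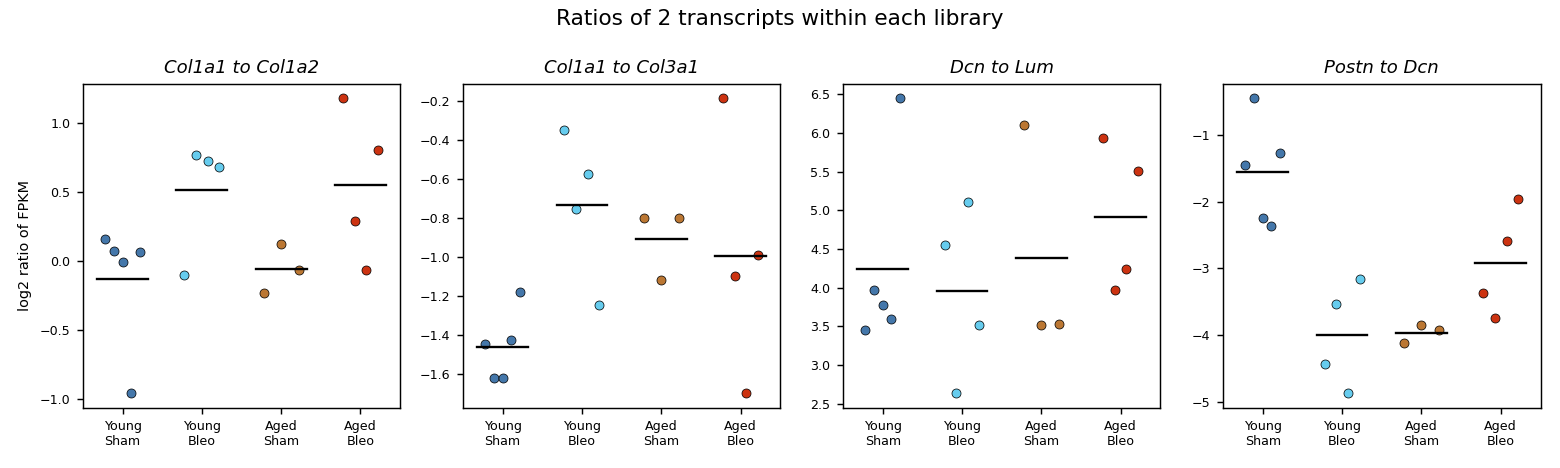
Log2 ratio of the FPKM of 2 genes in each library (1 panel per ratio), with group means as lines. Postn to Dcn is -2.36 or higher in all Young Sham libraries and -3.16 or lower in all Young Bleo and Aged Sham libraries, while Dcn to Lum scatters from 2.64 to 6.45 without separating the groups.

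Other interstitial matrix genes changed in both directions. Of 30 further matrix genes, 7 fell and 5 rose in Aged Bleo relative to Young Sham, with a median log2 fold change of -0.28. The 3 most abundant of those called were Fbln5, an elastic fibre protein (0.92, adjusted p = 0.050), Cthrc1 (1.39, adjusted p = 0.00051) and the microfibril gene Mfap2 (-0.77, adjusted p = 0.012). By edgeR 6 fell and 2 rose, and Fbln5 was not called (adjusted p = 0.11). In Young Bleo relative to Young Sham, 6 rose and 5 fell (6 and 2 by edgeR), and the 3 most abundant of those called all rose: Sparc, a collagen-binding protein (1.41, adjusted p = 0.00016), Fbln5 (1.5, adjusted p = 2e-04) and Fbln2 (1.17, adjusted p = 0.0024). Aged cells after bleomycin, against their sham group, had 3 lower and none higher: the proteoglycans Bgn (-1.10, adjusted p = 0.0033) and Ogn (-2.53, adjusted p = 0.0028), and Mfap4 (-2.34, adjusted p = 6.8e-05), of which edgeR called Mfap4 alone. Mfap4 had risen in Aged Sham relative to Young Sham (2.25, adjusted p = 3.9e-05).

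Genes that modify and crosslink collagen were counted in the same comparisons, whose shares over all genes are given above. Of 17 such genes, 2 rose and 1 fell in Young Bleo relative to Young Sham, namely Fkbp10 (0.98, adjusted p = 0.00017), the prolyl hydroxylase P4ha2 (1.46, adjusted p = 6.2e-08) and Loxl3 (-0.65, adjusted p = 0.026), the last not called by edgeR (adjusted p = 0.063). In Aged Sham relative to Young Sham, the collagen chaperone Serpinh1 fell (-1.03, adjusted p = 4.1e-05), as did the crosslinking enzyme Loxl2 (-1.88, adjusted p = 0.0014), while P4ha2 rose (0.84, adjusted p = 0.030). By edgeR only Serpinh1 of the 17 was called there, with an adjusted p of 0.056 for Loxl2 and 0.11 for P4ha2. After bleomycin in aged cells, 2 rose and 2 fell against the sham group, of which edgeR called 1, Loxl2 (2.13, edgeR adjusted p = 0.044).

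Across the 16 libraries, the genes whose log2 normalized counts followed Col1a1 most closely, of 13764 compared, included Sppl2b (Pearson r = 0.84, Spearman rho = 0.88), Btbd9 (0.84 and 0.79), Cul9 (0.82 and 0.81) and Exo5 (0.81 and 0.71). Of the matrix genes, Col3a1 (0.80 and 0.83) and Col1a2 (0.74 and 0.65) came nearest, and Dcn reached 0.39 and 0.24. Without the 2 libraries farthest from the median of Col1a1, Aged Bleo replicates 5 and 3, Pearson r was 0.77 for Col3a1, 0.59 for Col1a2 and 0.09 for Dcn. These are descriptions over libraries that share groups and depth.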

How the data were processed

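Gene-level counts and FPKM of 16 libraries were used as the authors deposited them. Per the study's methods and the submitters' processing notes, the authors aligned 100 x 2 paired-end reads to mm10 with STAR 2.5.2b within MAPRSeq and took counts per gene from featureCounts (Subread). The annotation, strand setting and rule for multi-mapped reads are not given in the sources used here. For the library kit, the labels give SMART-Seq v4 with Nextera and the methods TruSeq with poly(A) selection. The FPKM values were scaled by the authors per exonic length and library size, to a library total of which the deposited counts make up 40.3% to 44.7%. PCR copies were not removed by molecular identifiers, so depth covers counting error only.

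Counts were tested with DESeq2 1.42.0 (R 4.3.3; 1 model of 4 groups, all libraries, unshrunken log2 fold changes, Benjamini-Hochberg adjustment over all genes tested), after the study's methods. Intervals are 95%. Non-overlap was read on normalized counts. Ratios were log2 of FPKM with a pseudocount of 0.01, tested by exact two-sided permutation. Alternatives were edgeR 4.0.16 quasi-likelihood, limma 3.58.1 (voom, and limma-trend on log2(FPKM + 0.1) or log2(FPKM + 1)), TMM factors, a mean count of at least 10, no independent filtering, no Cook filter, only the 2 groups compared, and each library left out. Leaving out Aged Bleo replicates 1 and 2 together was chosen after seeing the data. Scripts were tested on simulated data. Replicate numbers do not repeat between groups. The labels name the libraries of a group as separate samples, and p-values measure the spread between them. All 10 genes are named in every comparison, and from each further list at most the 3 most abundant called genes. The members and lists were chosen with earlier results of these data known. Promoters were read from RefSeq tables. Of the 5 genes most like Col1a1, 1 is not reported here.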

Additional observations from a re-analysis of the deposited data

Results flagged for a closer look

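The outermost library of a group of 4 or 5 was compared with its nearest neighbour in 42 groups of values (Dixon's test at the 95% level), and 4 stood apart, where chance gives about 1 in 20. Fbln1 in Aged Bleo replicate 3 was 278 normalized counts, against 92.1 to 111 in the other Aged Bleo libraries. The log2 ratio of Col1a1 to Col1a2 was -0.957 in Young Sham replicate 24 and -0.101 in Young Bleo replicate 17, each lower than the rest of its group. The log2 ratio of Dcn to Lum was 6.45 in Young Sham replicate 25, the library with 16.6 normalized counts of Lum.

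The response of Dcn to bleomycin differed between aged and young cells by -1.92 on the log2 scale (DESeq2 interaction contrast, adjusted p = 0.011), with a range of adjusted p over the alternatives from 0.00077 to 0.35.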

How the results depend on the processing

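No paired analysis was possible because the groups share no replicate numbers. For Postn, Fbln1, Dcn and Col1a2 in Aged Bleo relative to Young Sham and for Postn in Young Bleo and Aged Sham relative to Young Sham, direction and call held under all alternatives run. TMM factors and edgeR moved the median of all genes by less than 0.1 on the log2 scale. The cause of the changes below was not tested. Where a count is 0, the same tools had 2 genes higher (Aged Sham relative to Young Sham), 5 lower (voom, Aged Bleo relative to Aged Sham), 6 lower (edgeR, Aged Bleo relative to Young Bleo) and 4 to 6 lower (difference between responses) at an unadjusted p under 0.05.

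Of genes called in Aged Sham relative to Young Sham, edgeR, voom and log2(FPKM + 0.1) called 0 higher, against 1, and leaving out a library gave 0 to 2 (0 without Aged Sham replicate 13, Aged Sham replicate 15 or Young Sham replicate 22, and 2 without Aged Sham replicate 14 or Young Sham replicate 23). The 2 groups alone gave 2 lower, against 1, and leaving out a library 1 to 2 (2 without Aged Sham replicate 15, Young Sham replicate 24 or 25). In Aged Bleo relative to Aged Sham, the 3 genes called lower became 1 by edgeR and by both FPKM fits, 0 by voom, 1 without Aged Bleo replicates 1 and 2, and 1 to 4 with a library left out (1 without Aged Sham replicate 15). In Aged Bleo relative to Young Bleo, the 3 became 0 by edgeR, 5 without Aged Bleo replicates 1 and 2, and 2 to 5 with a library left out (5 without Aged Bleo replicate 1). For the difference between responses, the 1 gene lower became 0 by edgeR, voom and both FPKM fits, and 1 to 2 with a library left out (2 without Aged Bleo replicate 3), while 0 higher became 1 without Aged Bleo replicates 1 and 2, and 0 to 1 with a library left out (1 without Aged Bleo replicate 2 or Young Bleo replicate 20). The share of all genes called moved under the same fits. Genes called higher in Aged Sham relative to Young Sham were 2.24% by DESeq2 on all libraries, 0.469% by voom, 0.471% by log2(FPKM + 0.1) and 1.10% to 2.53% with a library left out, and those lower were 1.11%, 1.61% with the 2 groups alone and 0.707% to 1.44%. Genes called lower were 2.44% in Aged Bleo relative to Aged Sham, 0.213% by voom, 0.426% by both FPKM fits and 1.27% to 3.91% with a library left out. They were 0.410% in Aged Bleo relative to Young Bleo, and 0.195% to 0.838% with a library left out. For the difference between responses they were 0.247%, at most 0.00561% by edgeR, voom and the FPKM fits, and 0.103% to 0.522% with a library left out, while without Aged Bleo replicates 1 and 2 genes called higher went from 0.134% to 1.47%.

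No difference that changed sign was called with all libraries. In Aged Sham relative to Young Sham, Lum was -0.04 and -0.039 on the FPKM scales and -0.569 to 0.478 with a library left out, and Mfap5 was -0.421 to 0.322. In Young Bleo relative to Young Sham the same ranges were -0.054 to 0.444 for Lum, -0.049 to 0.261 for Fbln1 and -0.335 to 0.588 for Pdgfra. In Aged Bleo relative to Aged Sham, Col3a1 was 0.008 by edgeR, 0.107 and 0.074 on the FPKM scales, 0.013 with TMM factors and -0.173 to 0.27 with a library left out, and Col1a1 was -0.16 by voom, -0.784 without Aged Bleo replicates 1 and 2 and -0.569 to 0.415 with a library left out. Postn was 0.085 there without Aged Bleo replicates 1 and 2. In Aged Bleo relative to Young Bleo, Dpt was 0.015 by voom, 0.096 without Aged Bleo replicates 1 and 2 and -0.219 to 0.122 with a library left out, Postn was 0.049 without those replicates, and Pdgfra was -0.171 to 0.873. The difference between responses was -0.939 to 0.047 for Col1a1. Log2 ratios ranged, with a library left out, from -0.174 to 0.24 (Col1a1 to Col1a2, Aged Bleo relative to Young Bleo), -0.135 to 0.159 (Col1a1 to Col1a2, Aged Sham relative to Young Sham), -0.358 to 0.146 (Col1a1 to Col3a1, Aged Bleo relative to Aged Sham), -0.72 to 0.691 (Dcn to Lum, Aged Sham relative to Young Sham) and -0.68 to 0.256 (Dcn to Lum, Young Bleo relative to Young Sham).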
